A study of Mus musculus with 4 samples.

Results

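The IL-6 family of cytokines and its signalling chain were followed through mouse back skin in 7 genes, chosen by symbol from the 27998 genes of the count matrix. They are the ligands Il6 and Lif, the receptor chains Il6ra, Il6st and Osmr, the transcription factor Stat3 and the feedback inhibitor Socs3. All 7 were found. The cells came from CD1 mice of 7 to 8 weeks, sorted by FACS and captured as droplet libraries that read the 3′ end of each transcript. There were 4 libraries, 1 per group: Ovol1 null with imiquimod, Ovol1 null untreated, control with imiquimod and control untreated. The imiquimod groups had been given a single application of 62.5 mg of cream at 5% imiquimod, a Toll-like receptor agonist used to bring on psoriasis-like inflammation. Ovol1 codes for a transcription factor with zinc fingers that epithelial cells use. The kind of null allele, the part of the gene it removes, the tissue in which it is lost and the number of mice behind a library are not stated in the labels. The design asks what imiquimod does in each genotype and what the loss of Ovol1 changes in each treatment.

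Cytokines of this family bind receptor complexes that share the chain gp130, the product of Il6st. Il6ra encodes the chain that recognises IL-6, and Osmr the chain that pairs with gp130 to bind oncostatin M. JAK kinases on the receptors phosphorylate STAT3, which enters the nucleus and switches on genes that include Socs3, whose product binds the receptor and damps the signal. In skin the pathway is known for its part in wound repair and in psoriasis-like inflammation, where fibroblasts, endothelial cells, immune cells and keratinocytes can all take part.

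In the GENCODE annotation of GRCm38, the assembly also called mm10, all 7 genes are protein coding. Il6 lies at chr5:30013114-30019981 on the plus strand and has 5 exons in its first listed transcript. Lif lies at chr11:4257557-4272514 on the plus strand with 3 exons. Il6ra is at chr3:89864059-89913196 on the minus strand with 10 exons, Il6st at chr13:112464070-112510086 on the plus strand with 15, and Osmr at chr15:6813577-6874969 on the minus strand with 18. Stat3 is at chr11:100885098-100939540 on the minus strand with 24 exons, and Socs3 at chr11:117966079-117970047 on the minus strand with 2. Ovol1, the targeted gene, is at chr19:5549136-5560646 on the minus strand with 4 exons.

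The promoters of Il6 and Socs3 are shown because the results below turn on these genes. Il6 is a ligand whose level differed with treatment, and Socs3 an inhibitor that was lower with imiquimod in mural cells of control. The lower Socs3 level in pooled keratinocytes depended on the scaling and on which clusters were pooled, as given below. Each sequence is the 250 bases before the gene's RefSeq start in GRCm38.p6, read 5′ to 3′ on the gene's strand, with every match of 4 searched elements in capitals. The elements were TTCNNNGAA for STAT factors, GGANTTTCC for NF-kappa B, TGANTCA for AP-1 and TTNNGCAA for C/EBP factors, searched on both strands. Il6 is read from chr5:30012864-30013113 on the plus strand and Socs3 from chr11:117969367-117969616 on the minus strand. The Socs3 window lies inside the GENCODE gene given above, which begins at 117970047 on that strand, so the RefSeq and GENCODE starts differ. Positions before the start refer to the RefSeq start.
Il6: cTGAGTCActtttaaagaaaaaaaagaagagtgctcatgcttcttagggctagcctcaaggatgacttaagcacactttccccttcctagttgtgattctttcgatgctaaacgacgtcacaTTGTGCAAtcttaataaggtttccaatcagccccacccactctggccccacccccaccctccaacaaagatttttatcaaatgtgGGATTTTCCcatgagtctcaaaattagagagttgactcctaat
Socs3: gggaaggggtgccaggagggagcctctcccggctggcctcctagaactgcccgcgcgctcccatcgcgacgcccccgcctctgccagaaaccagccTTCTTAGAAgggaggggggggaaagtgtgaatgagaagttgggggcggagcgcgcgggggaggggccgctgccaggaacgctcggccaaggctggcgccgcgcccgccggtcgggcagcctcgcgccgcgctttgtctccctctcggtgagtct
In the Il6 window the capitals mark an AP-1 match from 249 to 243 bases before the start, a C/EBP match from 128 to 121 and a kappa B match from 43 to 35, and none of them overlap. In the Socs3 window they mark a STAT match from 154 to 146 bases before the start. Over the 32851 RefSeq promoters of the same length, 7.02% hold the STAT element, 1.07% the kappa B element, 6.75% the AP-1 element and 9.56% the C/EBP element. Of the other 5 members, the Lif window holds an AP-1 match from 228 to 222 bases before the start, and the windows of Il6ra, Il6st, Osmr and Stat3 hold no match to these letters. The Osmr window also lies inside its GENCODE gene, and the end of the Lif window overlaps its own. A match is a description of the letters and not a measured binding site.

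After filtering, 5563 cells remained in the library labelled Ovol1 null with imiquimod, 5221 in the one labelled null untreated, 5583 in control imiquimod and 6066 in control untreated. They held 55208532, 31579096, 29706014 and 37331164 UMIs (unique molecules counted), with medians of 8394, 5706, 4762 and 5706 UMIs per cell in that order of libraries. The shallowest cell kept had 3039 UMIs in labelled-null imiquimod and between 1413 and 1456 in the other libraries, so the first library is also the deepest. Of 23188 distinct barcodes, 267 occurred in 2 libraries. UMIs of Ovol1 were not lower in the libraries labelled null: keratinocytes had 98.3 counts per 1000000 (CPM) in labelled-null imiquimod, 42.8 in labelled-null untreated, 36.6 in control imiquimod and 30.3 in control untreated. A 3′ read outside a deleted part would not show the loss, so these counts do not check the label, and the libraries are called labelled null throughout. With 1 library a group there was no test between groups. Intervals are 95% intervals for counting error only, and variation between mice and cell preparations cannot be told apart from treatment or genotype.

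Cells were grouped by marker genes into fibroblast-like, keratinocyte-like, mural-like (pericytes and vascular smooth muscle) and T or NK-like cells, written below without the suffix. Another group, cluster 18, is given by its number, since macrophage and dendritic cells were not separated in it. These 5 lineages had at least 50 cells in every library. Levels are UMIs of a gene scaled to all UMIs of the lineage in that library, as CPM. A member counted as measured in a comparison from 20 UMIs upward, both libraries added, and was called higher or lower when the ratio of CPM passed 1.5 either way with its counting interval on one side of 1. The fibroblast clusters were nearly separate between libraries: clusters 0, 4 and 13 held untreated cells, cluster 2 held 2217 cells of control imiquimod, and clusters 1 and 12 held 2521 and 597 cells of labelled-null imiquimod. Cluster 18 had 66 cells in labelled-null imiquimod, 107 in labelled-null untreated, 82 in control imiquimod and 210 in control untreated, and 5 more cells of each middle library were added to it from their own clustering. It carried all 9 macrophage markers, but its top 10 genes, Lyz2 and Ccl4 among them, held 2 of the dendritic list (H2-Aa and Cd74) against 1 macrophage marker. The dendritic list summed there to 22277, 45933, 45544 and 45159 CPM and the macrophage list to 4980, 7754, 5660 and 7212 CPM, from labelled-null imiquimod to control untreated. The part of this mix in the values of cluster 18 was not tested.

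Imiquimod went with more calls in the libraries labelled null than in control, and the calls differed in kind. In the libraries labelled null, 13 of 26 measured pairs of member and lineage were higher with imiquimod and 3 were lower, where 12.6% and 21.3% of all measured genes were. In control, 4 of 28 pairs were higher and 5 lower, against 10.7% and 12.4% of all genes. Between the imiquimod libraries, 8 of 26 pairs were higher in labelled null than in control and 2 were lower, beside backgrounds of 12.2% and 17.3%. Between the untreated libraries, 1 of 28 pairs was higher in labelled null and 3 were lower, beside 4.97% and 3.92%. Of the other pairs among the 35 possible in each comparison, 9 had too few UMIs with imiquimod in labelled null and 7 in control. The control shares are near their backgrounds, and the higher calls in labelled null are above theirs. Members and the gene lists used below were chosen with earlier results of these data known. Shares set beside those of all genes are thus descriptions.

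**Figure D1:**
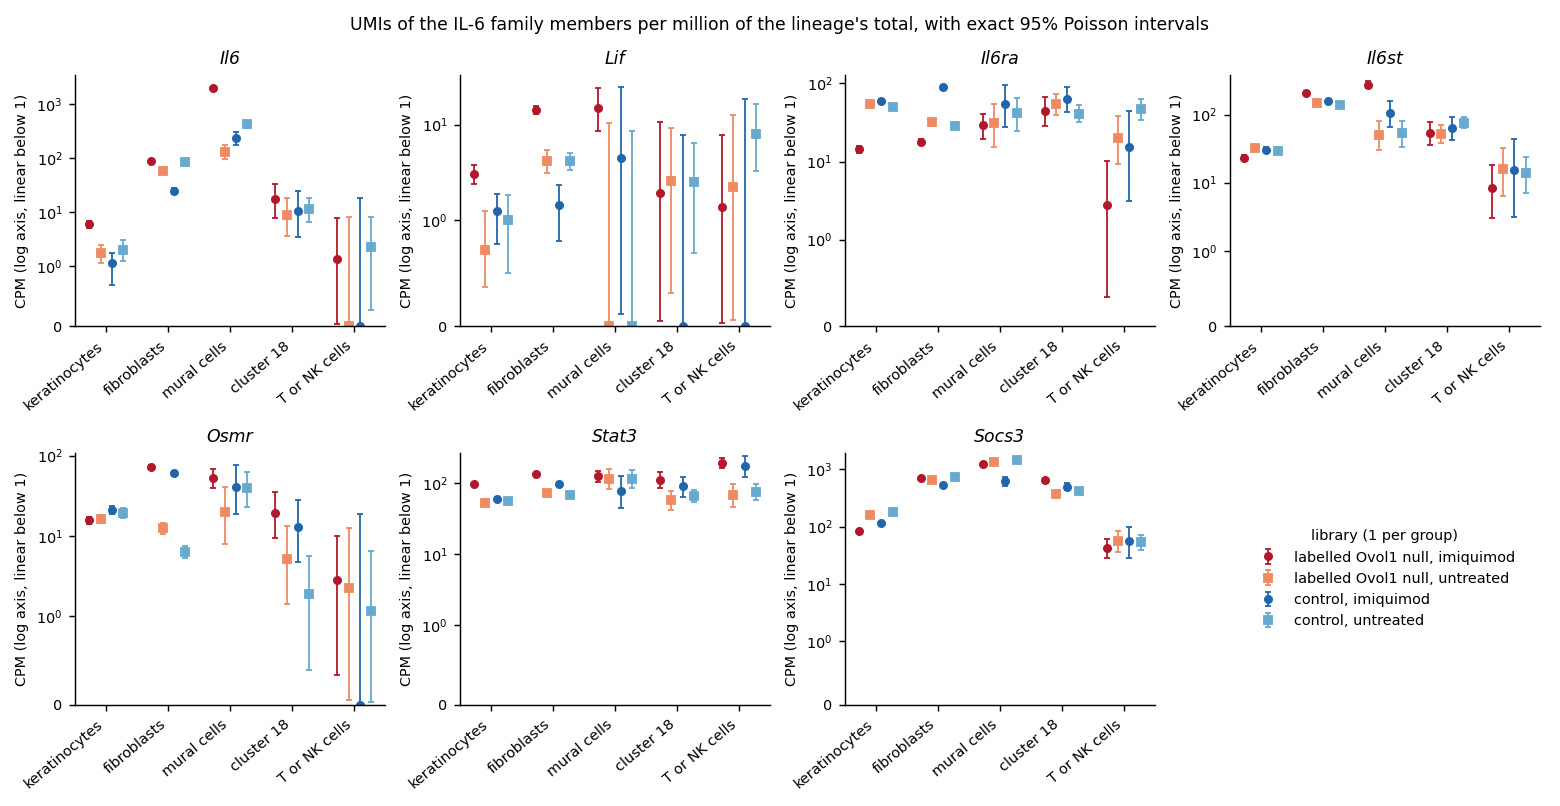
Level of each member (CPM, log axis that is linear below 1) in 5 lineages, with 1 point per library and bars for exact 95% Poisson intervals. Il6 in mural cells stands at 2033 CPM in labelled-null imiquimod, above the other 3 libraries, and Osmr in fibroblasts is high in both imiquimod libraries.

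Il6, the ligand that gives the family its name, was highest in mural cells among the 5 lineages in every library, lower in fibroblasts, and low in the other 3. In mural cells its level was 2033 CPM in labelled-null imiquimod, 131 in labelled-null untreated, 239 in control imiquimod and 428 in control untreated, from 2177, 47, 53 and 185 UMIs. The first library stood far above the rest, and their intervals did not overlap its own (1949 to 2120 CPM). Imiquimod thus went with a level 15.5-fold higher in labelled null (interval 11.6 to 21.2) and 1.79-fold lower in control (1.32 to 2.48). Labelled null was 8.52-fold above control with imiquimod (6.49 to 11.4) and 3.26-fold below it without (2.36 to 4.60).

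The mural Il6 signal sat in part of the cells. A UMI of Il6 was seen in 43.5% of 232 mural cells in labelled-null imiquimod, 10.7% of 84 in labelled-null untreated, 7.46% of 67 in control imiquimod and 17.9% of 106 in control untreated. With every cell thinned to 1000 UMIs the shares were 32.8%, 5.95%, 4.48% and 12.3%, so the order of libraries stayed. Single cells held up to 187, 24, 29 and 35 Il6 UMIs in the same order of libraries. The top 5% of mural cells held 48.1% of the Il6 UMIs in labelled-null imiquimod, against 85.1%, 98.1% and 63.8% in the other 3, so the values of the last 3 rest on a few cells. In T or NK cells, taken as the background, 0.575% of cells had an Il6 UMI in labelled-null imiquimod and 0.692% in control untreated, at median depths of 3826 and 2640 UMIs against 4204 and 3599 in mural cells.

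Markers of other cells were read in the mural lineage. The fibroblast list summed to 3777 CPM in labelled-null imiquimod, 2919 in labelled-null untreated, 1967 in control imiquimod and 4036 in control untreated, beside 15608, 19373, 15083 and 22632 CPM for the mural list itself. Fibroblast Il6 was 88.7 CPM in labelled-null imiquimod, below the mural level. The blood endothelial list of 8 genes summed to 42.0, 5.58, 9.002 and 2.31 CPM in that order. Of these genes only Kdr and Emcn were at 0 in every library. The adipocyte list summed to 5450, 1203, 4073 and 977 CPM, with Adipoq, Plin1, Cidec and Lep at 0. The part of these other genes in the Il6 result was not tested.

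Blood endothelial cells also carried Il6, but with only 80, 34, 32 and 26 cells they are described by level alone. The level was 827 CPM in labelled-null imiquimod, 391 in labelled-null untreated, 174 in control imiquimod and 436 in control untreated. Both endothelial levels in control lay within the counting error of the mural ones. A UMI was seen in 58.8%, 35.3%, 31.3% and 30.8% of these cells in the same order of libraries.

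By their number, fibroblasts held more of a library's Il6 UMIs than mural cells did, narrowly so in labelled-null imiquimod. They held 44.2% of them in labelled-null imiquimod, 81.0% in labelled-null untreated, 69.9% in control imiquimod and 85.0% in control untreated. Mural cells held 42.6%, 5.47%, 14.5% and 8.18%. Scaled to their own UMIs, fibroblast Il6 stood at 88.7 CPM in labelled-null imiquimod, 57.0 in labelled-null untreated, 24.4 in control imiquimod and 86.9 in control untreated. The control imiquimod value was the low one of the 4, and the labelled-null imiquimod level lay close to that of control untreated. With imiquimod, labelled null was 3.64-fold above control (3.20 to 4.16), and without it 1.53-fold below (1.40 to 1.67). Within labelled null the imiquimod ratio was 1.56 (1.43 to 1.70), just past the threshold, and within control the level was 3.56-fold lower. In the untreated libraries the difference sat in cluster 0 (57.7 CPM in labelled null and 102 in control) and cluster 13 (18.6 and 68.4 CPM), while cluster 4 had 91.6 CPM in labelled null and 82.5 in control, a ratio whose interval spans 1.

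Keratinocyte Il6 was low throughout, at 5.995 CPM in labelled-null imiquimod, 1.74 in labelled-null untreated, 1.13 in control imiquimod and 2.03 in control untreated. Labelled-null imiquimod was 3.45-fold above labelled-null untreated (2.30 to 5.32) and 5.30-fold above control imiquimod (3.31 to 8.94). A UMI was seen in 5.80% of its 1620 keratinocytes, against 0.592% of 2870 in control imiquimod, and the median depth of these cells was 13813 UMIs against 5516. Thinned to 1000 UMIs, 0.494% and 0.174% of the cells had one, and neither ratio was called on thinned cells, where 14 and 13 UMIs were left. Fibroblast markers in keratinocytes summed to 823, 2319, 1179 and 1930 CPM from labelled-null imiquimod to control untreated. The part of RNA from other cells in the keratinocyte Il6 values was not tested. In cluster 18 Il6 had between 5 and 18 UMIs a library and was not measured with imiquimod in labelled null.

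**Figure D2:**
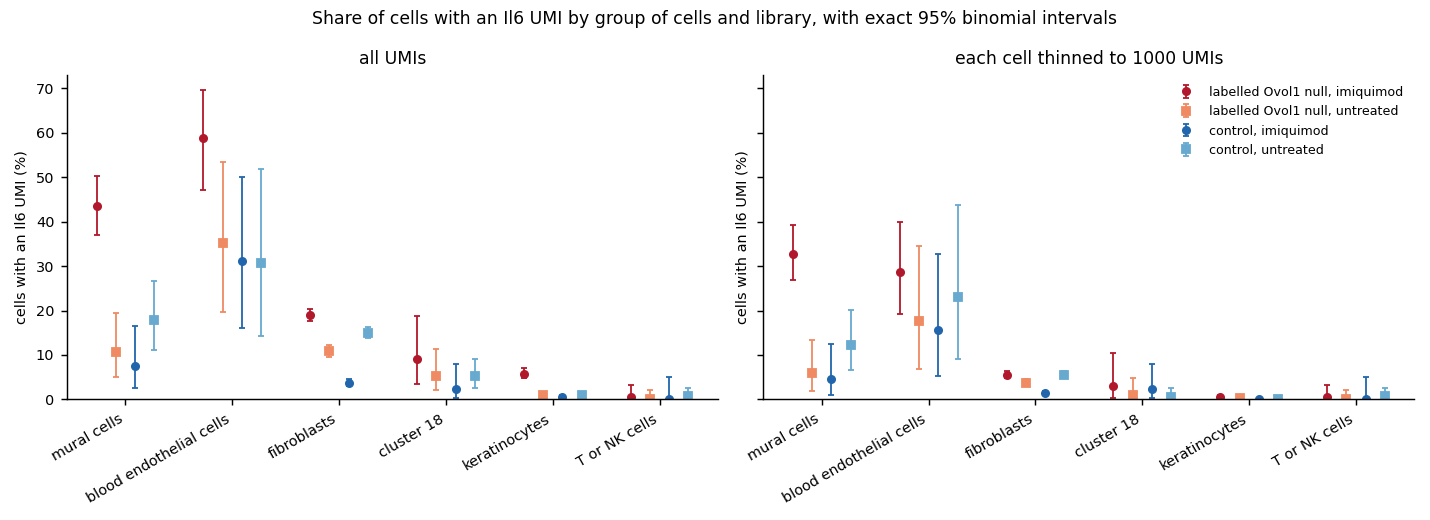
Share of cells with at least 1 Il6 UMI (%) by group of cells and library, with all UMIs and with each cell thinned to 1000 UMIs. Points are single libraries and bars exact 95% binomial intervals, and mural cells of labelled-null imiquimod stand at 43.5% and, thinned, 32.8%.

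Lif, a relative of IL-6 that signals through gp130 and the Lif receptor, was sparse, with 686 UMIs in 436 of 22433 cells. Fibroblasts had 14.3 CPM in labelled-null imiquimod, 4.18 in labelled-null untreated, 1.43 in control imiquimod and 4.16 in control untreated. The untreated libraries were alike, and the imiquimod ones lay on either side of them. Imiquimod went with a 3.43-fold higher level in labelled null (2.55 to 4.69) and a 2.91-fold lower one in control (1.67 to 5.41), where 15 UMIs were left. With imiquimod, labelled null was 10.0-fold above control (5.996 to 18.1). In keratinocytes the levels were 3.04, 0.720, 1.24 and 1.02 CPM from labelled-null imiquimod to control untreated, 4.22-fold higher with imiquimod in labelled null. Without cluster 5, described below, that ratio was 2.33 (0.903 to 5.89) and was not called. Mural cells had 16 Lif UMIs in labelled-null imiquimod, 0 in labelled-null untreated, 1 in control imiquimod and 0 in control untreated.

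**Figure D3:**
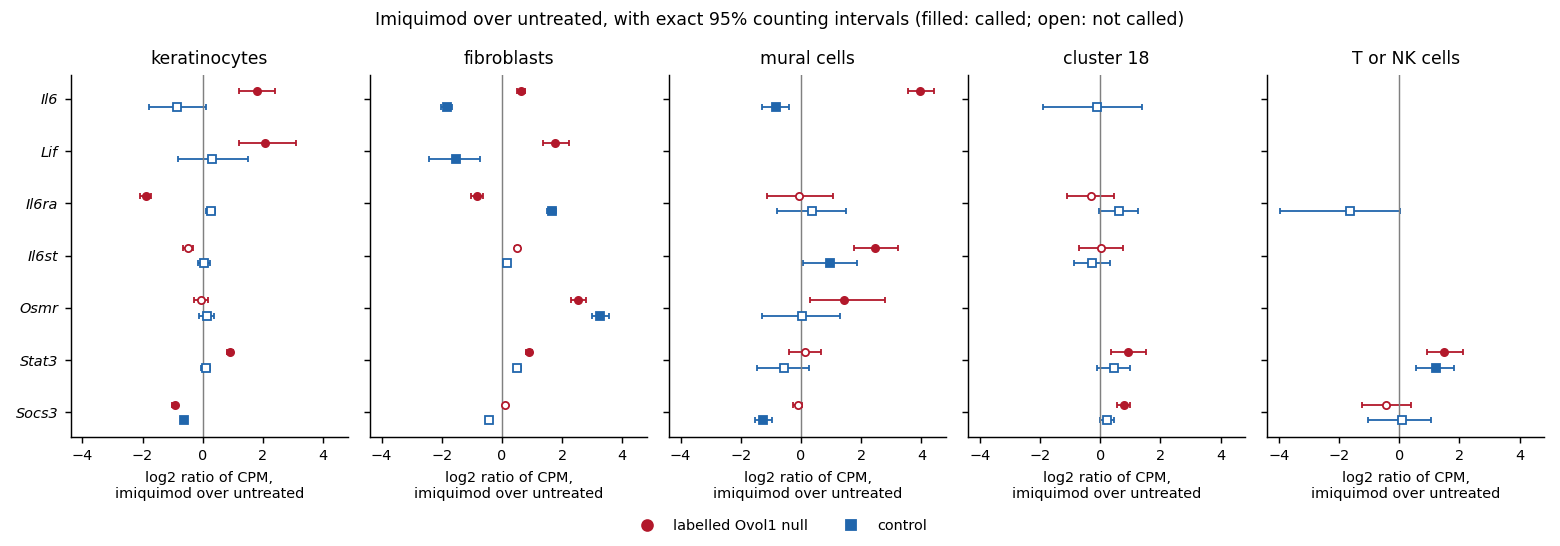
Log2 ratio of CPM, imiquimod over untreated, for each member and lineage in the libraries labelled Ovol1 null (circles) and control (squares), with exact 95% counting intervals. Filled symbols passed the threshold: fibroblast and mural Il6 and fibroblast Lif and Il6ra lie on opposite sides of 0 in the 2 genotype labels.

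Of the receptor chains, Il6ra moved in opposite directions in fibroblasts. Its level there was 17.98 CPM in labelled-null imiquimod, 32.0 in labelled-null untreated, 89.2 in control imiquimod and 28.4 in control untreated. Control imiquimod stood above the other 3 and labelled-null imiquimod below them. The level was 1.78-fold lower with imiquimod in labelled null (1.55 to 2.04) and 3.14-fold higher in control (2.84 to 3.48). The labelled-null call was lost with TMM scaling, at a log2 ratio of -0.54. With imiquimod, labelled null was 4.96-fold below control (4.43 to 5.56). By cluster, the level was 16.6 CPM in cluster 1 of labelled-null imiquimod and 88.8 CPM in cluster 2 of control imiquimod, so the difference is also one between clusters that each belong almost wholly to 1 library. In cluster 15, a fibroblast cluster with 106 cells of control imiquimod and 260 of control untreated, Il6ra was 121 CPM with imiquimod and 35.7 CPM without.

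In keratinocytes Il6ra stood apart in 1 library. It had 14.4 CPM in labelled-null imiquimod, 53.9 in labelled-null untreated, 59.4 in control imiquimod and 49.8 in control untreated. The first was 3.74-fold below labelled-null untreated (3.30 to 4.24) and 4.12-fold below control imiquimod (3.65 to 4.66). The make-up of this lineage differs: 1033 of 1062 cells of cluster 5, led by Stfa3, Krt6b, S100a8 and S100a9, came from labelled-null imiquimod, and that library had 35 suprabasal cells against 746 in control imiquimod. Cluster 5 had 17.2 CPM of Il6ra. Without it the keratinocyte log2 ratios were -3.24 against labelled-null untreated and -3.39 against control imiquimod, farther from 0 than the -1.90 and -2.04 with it. In cluster 6, a basal cluster led by Sostdc1, labelled-null imiquimod had 1 UMI (1.45 CPM) in 85 cells, and the other libraries 30.2, 37.4 and 32.3 CPM. Cluster 16 of the upper hair follicle had 3.82 CPM in labelled-null imiquimod, 17.1 in labelled-null untreated, 17.1 in control imiquimod and 10.4 in control untreated. Labelled-null imiquimod was lowest in both clusters, though in cluster 16 its interval overlaps that of control untreated, which had 6 UMIs.

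Cluster 5 holds S100a8 in 97.9% and S100a9 in 95.8% of its cells, genes that neutrophils carry and that stressed keratinocytes also make. Of the other neutrophil markers, Ly6g was at 0, Csf3r, Retnlg and Mmp9 were each in 0.0942% of its cells, G0s2 in 0.377% and Cxcr2 in 11.8%. T or NK cells had 20.2 CPM of Il6ra in labelled-null untreated and 47.2 CPM in control untreated, from 9 and 41 UMIs, 2.34-fold lower in labelled null (1.12 to 5.47). Cluster 18 had between 41.1 and 63.6 CPM of Il6ra with no call.

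Il6st, the shared signalling chain gp130, was called in mural cells. The mural level was 274 CPM in labelled-null imiquimod, 50.2 in labelled-null untreated, 104 in control imiquimod and 53.2 in control untreated. Both imiquimod libraries were above both untreated ones, the one labelled null by more. Imiquimod went with a 5.45-fold higher level in labelled null (3.39 to 9.32) and a 1.94-fold higher one in control (1.04 to 3.63), the control ratio from 23 UMIs in each library. In fibroblasts Il6st was 209.8 CPM in labelled-null imiquimod, 147 in labelled-null untreated, 156 in control imiquimod and 137 in control untreated, with no ratio past 1.5. With TMM scaling, which allows for a few strong genes taking up the UMIs, fibroblast Il6st passed the threshold, at 1.75 for imiquimod in labelled null (1.66 to 1.85) and 1.60 for labelled null over control with imiquimod (1.51 to 1.69). Keratinocytes ran from 23.3 to 32.8 CPM without a call. Without cluster 5 their Il6st was lower in labelled-null imiquimod, at 0.605 of labelled-null untreated (0.492 to 0.740) and 0.650 of control imiquimod (0.528 to 0.795). Cluster 18 ran from 52.5 to 75.9 CPM over the 4 libraries. Lymphatic endothelial cells, described by level, had between 225 and 292 CPM.

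Osmr, the oncostatin M receptor chain, was higher with imiquimod in fibroblasts of both genotype labels. Its level was 72.1 CPM in labelled-null imiquimod, 12.4 in labelled-null untreated, 59.9 in control imiquimod and 6.24 in control untreated. The imiquimod libraries did not overlap the untreated ones. The ratio was 5.80 in labelled null (4.91 to 6.89) and 9.61 in control (7.98 to 11.6). A UMI was seen in 40.8% of fibroblasts in labelled-null imiquimod, 7.17% in labelled-null untreated, 22.2% in control imiquimod and 3.95% in control untreated, and thinned to 1000 UMIs in 6.55%, 1.47%, 6.10% and 0.700%. In the fibroblast cluster that both control libraries share, number 15, Osmr was 48.6 CPM with imiquimod and 4.35 CPM without, from 14 and 5 UMIs. Without treatment, labelled null was 1.995-fold above control (1.57 to 2.53), in cluster 0 by 1.96-fold and in cluster 4 by 2.28-fold. Mural Osmr was 2.68-fold higher with imiquimod in labelled null (1.22 to 6.96), from 56 and 7 UMIs. In keratinocytes it ran from 15.6 to 20.96 CPM with no call, but without cluster 5 the imiquimod ratio in labelled null was 1.66 (1.36 to 2.03).

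Stat3, the transcription factor that the receptors activate, was higher with imiquimod in 4 lineages of labelled null. Keratinocytes had 95.9 CPM in labelled-null imiquimod, 51.4 in labelled-null untreated, 59.4 in control imiquimod and 55.8 in control untreated. Labelled-null imiquimod was the high library, 1.87-fold above labelled-null untreated (1.73 to 2.02) and 1.61-fold above control imiquimod (1.501 to 1.74). Its cluster 5 had 94.5 CPM and its follicle cluster 16 had 119.9 CPM, against 48.7, 61.8 and 71.4 CPM for cluster 16 in labelled-null untreated, control imiquimod and control untreated. The bulge cluster, number 11, did not follow, with 71.7 CPM in labelled-null imiquimod, 68.4 in labelled-null untreated, 101 in control imiquimod and 53.3 in control untreated. Fibroblasts had 134, 72.1, 95.2 and 66.6 CPM in the same order of libraries, a ratio of 1.86 with imiquimod in labelled null (1.73 to 2.003) and below 1.5 in control. Between the imiquimod libraries the fibroblast ratio was 1.41, not called, and with TMM scaling it passed at 1.68 (1.56 to 1.80). These counts are of Stat3 transcripts and say nothing of the phosphorylated protein.

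In T or NK cells Stat3 was 189 CPM in labelled-null imiquimod, 67.2 in labelled-null untreated, 172 in control imiquimod and 74.8 in control untreated. Both imiquimod libraries were above both untreated ones, by 2.81-fold in labelled null (1.88 to 4.33) and 2.30-fold in control (1.47 to 3.54). The cells differ, since 137 of the 174 T or NK cells of labelled-null imiquimod and 13 of 70 in control imiquimod were in cluster 24, led by Il17a and Il17f, which held none from the untreated libraries. That cluster had 219 CPM of Stat3 in labelled-null imiquimod. In cluster 14, which all 4 libraries share, the levels were 86.0, 67.2, 109 and 74.8 CPM from labelled-null imiquimod to control untreated, and their intervals overlap. In cluster 18 Stat3 was 1.91-fold higher with imiquimod in labelled null (1.27 to 2.89), from 57 and 45 UMIs. On thinned cells, where 14 UMIs were left, that ratio turned to -0.085 on the log2 scale.

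Socs3, the feedback inhibitor that STAT3 switches on, was lower with imiquimod in keratinocytes under both labels and in mural cells of control, and higher in cluster 18 of labelled null. In mural cells it was 1242 CPM in labelled-null imiquimod, 1342 in labelled-null untreated, 617 in control imiquimod and 1467 in control untreated. Control imiquimod was the low library, 2.38-fold below control untreated (1.97 to 2.88) and 2.01-fold below labelled-null imiquimod (1.69 to 2.42). In fibroblasts the levels were 717, 664, 539.9 and 734 CPM in the same order, with no ratio past 1.5. With TMM scaling labelled null passed it over control with imiquimod, at 1.58 (1.53 to 1.63). Cluster 18 had 645 CPM in labelled-null imiquimod, 376 in labelled-null untreated, 499.9 in control imiquimod and 426 in control untreated, 1.71-fold higher with imiquimod in labelled null (1.46 to 2.01). Neutrophil markers summed to 4321 CPM in its cells of labelled-null imiquimod and 695, 14.8 and 11.4 CPM in those of the other libraries. Of that list only Ly6g was at 0 in every library. Clustered alone, labelled-null imiquimod gave a neutrophil cluster of 13 cells, with 6 of 8 markers, and no macrophage cluster. The part of neutrophils in the Socs3 value was not tested. T or NK cells ran from 41.7 to 56.0 CPM. Among the 5 lineages mural cells were thus highest in 3 libraries. In control imiquimod mural cells, fibroblasts and cluster 18 could not all be ordered within counting error. Blood endothelial cells, described by level, had 1432 CPM in labelled-null imiquimod, 1412 in labelled-null untreated, 1056 in control imiquimod and 839 in control untreated.

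Keratinocyte Socs3 was lower with imiquimod under both labels. It was 84.3 CPM in labelled-null imiquimod, 161 in labelled-null untreated, 114 in control imiquimod and 177 in control untreated. The fall was 1.91-fold in labelled null (1.80 to 2.02) and 1.56-fold in control (1.46 to 1.66). The control call was lost with TMM scaling, at a log2 ratio of -0.45, and the labelled-null ratio turned to 0.10 without cluster 5, where Socs3 was 56.5 CPM. Without that cluster labelled-null imiquimod was also above control imiquimod, by 1.52-fold (1.41 to 1.64), while with it the ratio was 0.740 and not called. Few keratinocytes carry most of it: the top 5% of cells held 51.6% of the Socs3 UMIs in labelled-null imiquimod and 69.8%, 71.5% and 67.9% in the other libraries. By cluster, levels were high in the bulge, at 551, 501, 761 and 527 CPM from labelled-null imiquimod to control untreated, and in basal cluster 19, led in part by Atf3, Egr2 and Btg2. In labelled-null imiquimod cluster 5, with its low level but many cells, gave 1059 Socs3 UMIs and the bulge 553. Cluster 19 had 1050 CPM in labelled-null untreated, 536 in control imiquimod and 892 in control untreated, and 8 cells in labelled-null imiquimod. The untreated basal cluster 7 had 41.4 CPM in labelled null and 53.0 in control. Without treatment, in the shared fibroblast cluster 15, Socs3 was 1561 CPM in labelled null and 1977 in control, and control imiquimod had 382 CPM there, 5.18-fold below control untreated.

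**Figure D4:**
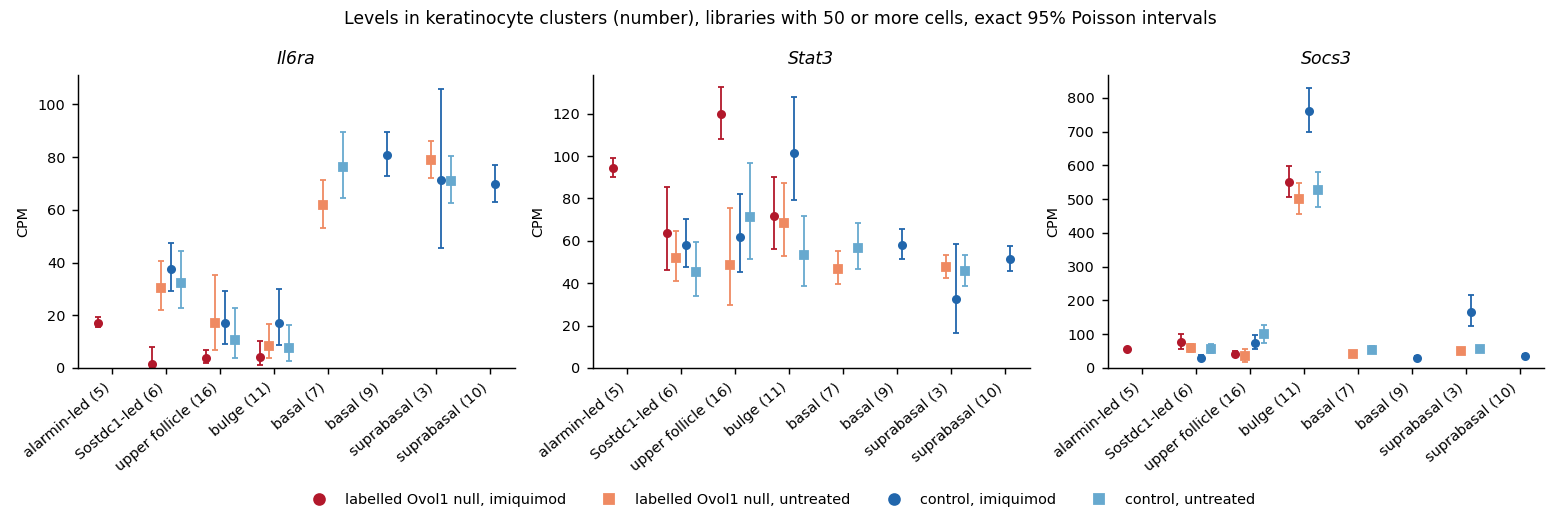
Levels of Il6ra, Stat3 and Socs3 (CPM) in 8 keratinocyte clusters, with 1 point per library that has at least 50 cells in the cluster and bars for exact 95% Poisson intervals. Il6ra of labelled-null imiquimod is the lowest point in clusters 6, 11 and 16. In clusters 11 and 16 its interval overlaps that of control untreated, from few UMIs. Socs3 is high in the bulge cluster of all 4 libraries.

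Genes that cells switch on within minutes of stress or of tissue dissociation were low in the same mural library as Socs3, but list and gene did not move together in every lineage. A list of 16 such genes, Fos, Jun, Egr1 and Atf3 among them, summed in mural cells to 32431 CPM in labelled-null imiquimod, 35205 in labelled-null untreated, 14021 in control imiquimod and 33518 in control untreated. Control imiquimod was again the low library, and there 13 of 16 listed genes were lower than in control untreated and none higher (median log2 ratio -1.20, against -0.09 over all genes tested, of which 10.8% were lower). In labelled-null imiquimod, 15 of 16 were higher in mural cells than in control imiquimod, where 7.497% of all mural genes were (median log2 ratio 1.31, all genes -0.04). In fibroblasts the sums were 10953, 17496, 9953 and 19065 CPM, in keratinocytes 4007, 6038, 4946 and 7355 CPM, and in the cells of cluster 18 they were 9705, 14693, 11081 and 14785 CPM, in the same order of libraries. All 3 had lower sums with imiquimod under both labels. In cluster 18 of labelled null, however, 10 of the 16 genes were lower with imiquimod, beside 10.7% of all its genes, while Socs3 was 1.71-fold higher. In fibroblasts of labelled null 8 of 16 were lower, beside 28.3% of all genes, while Socs3 was not called. Over 28 sums of 7 classes in 4 libraries, the genes most like Socs3 among 5291, by Pearson's r of log2(CPM + 10), were Egr1 (0.92), Jun (0.92), Cyr61 (0.92), Cd81 (0.91) and Klf9 (0.90). Egr1 and Jun stand on the list of 16. Among members, Socs3 had r of 0.04 with Stat3 and 0.65 with Il6. These values are descriptions, and the 28 points share libraries and classes. The part of dissociation in the Socs3 values was not tested.

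**Figure D5:**
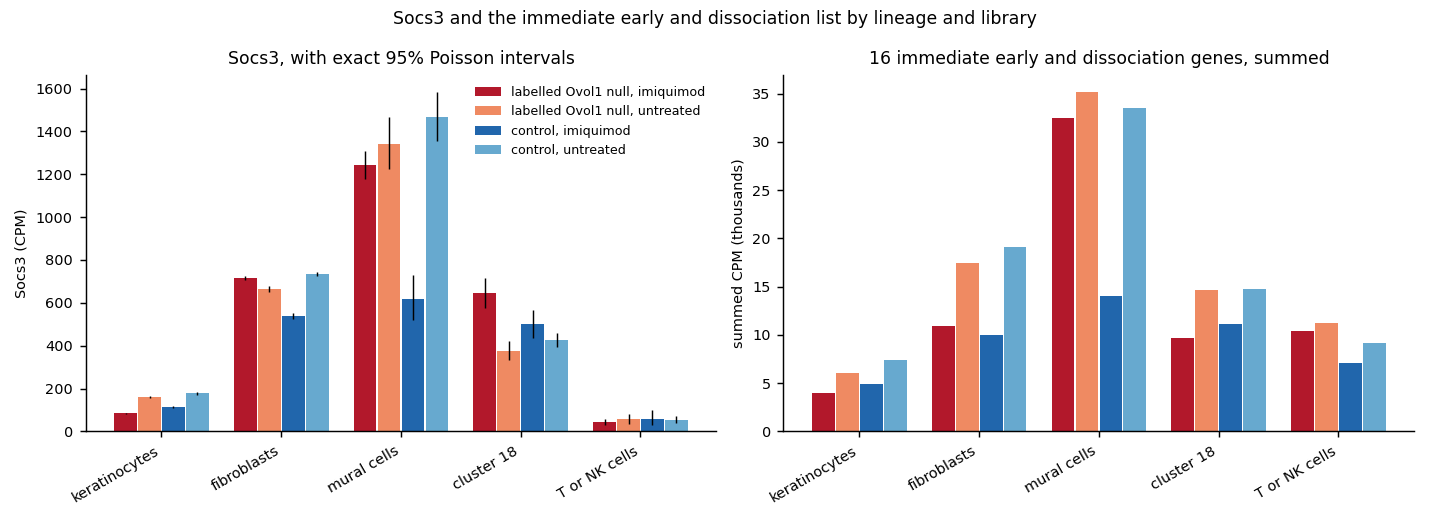
Left, Socs3 (CPM) with exact 95% Poisson intervals, and right, the summed level of 16 immediate early and dissociation genes (CPM, axis marks in units of 1000), in 5 lineages with 1 bar per library. In mural cells both are lowest in control imiquimod, at 617 CPM of Socs3 and a sum of 14021 CPM.

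By the same measure the genes most like Il6 were Adamts4 (0.97), a secreted protease, Crispld2 (0.93), Gng11 (0.92), Pdgfrb (0.92), a receptor that marks mural cells and fibroblasts, and Ebf1 (0.92). Of the members, Il6st was the most like Il6 (0.76).

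Other ligands of the family were read from a list of 10. In cluster 18 Osm, the ligand of the Osmr complex, had 135 CPM in labelled-null imiquimod, 53.8 in labelled-null untreated, 12.7 in control imiquimod and 73.4 in control untreated. Control imiquimod was the low library, from 6 UMIs, 5.77-fold below control untreated (2.57 to 16.1) and 10.6-fold below labelled-null imiquimod (4.65 to 29.96). The neutrophil sums of cluster 18 (4321, 695, 14.8 and 11.4 CPM) and its dendritic sums differ between these libraries too, and their part in the Osm values was not tested. Ebi3, a subunit of IL-27, was 3.09-fold higher with imiquimod in cluster 18 of control (1.91 to 4.99), at 76.3 CPM against 24.7 CPM. Osm in keratinocytes had 28 UMIs in labelled-null imiquimod and 0 in labelled-null untreated, at least 6.30-fold higher against 3 counts in the second library. Cntf was at 0 in keratinocytes, fibroblasts and cluster 18 of all libraries.

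A list of 8 receptor genes includes the members Il6ra, Il6st and Osmr, so its counts partly repeat calls given above. Of the 7 measured in fibroblasts, 3 were higher with imiquimod in labelled null and 1 was lower. Their median log2 ratio was 0.51, against -0.24 over all genes. Of all fibroblast genes 9.38% were higher and 28.3% lower in that comparison. In control 5 of 7 were higher and none lower (median 1.65, all genes 0.01), beside 17.6% and 16.99% of all genes. Keratinocytes of labelled-null imiquimod had 5 of 7 receptor genes lower than labelled-null untreated and 5 of 7 lower than control imiquimod, where 29.8% and 21.9% of all keratinocyte genes were lower. The list's median log2 ratios were -1.08 and -1.57, against -0.19 and -0.04 over all genes. Il11ra1, the IL-11 receptor chain, followed Il6ra there, at 43.3 CPM in labelled-null imiquimod, 152 in labelled-null untreated, 237 in control imiquimod and 184 in control untreated. In fibroblasts Cntfr was 13.8, 13.4, 87.5 and 11.2 CPM in the same order of libraries, high in control imiquimod as Il6ra was. Il11ra1 and Cntfr were picked after their values were seen.

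Of the JAK kinases, Jak2 was 2.04-fold lower in cluster 18 of untreated labelled null than of untreated control (1.15 to 3.87). Of the 7 feedback inhibitors, 4 were lower with imiquimod in keratinocytes under each label, with 1 higher in labelled null and none in control. Socs3, described above, is among the lower ones under each label. The list was not read with TMM scaling or without cluster 5. Of all keratinocyte genes 29.8% were lower and 16.6% higher with imiquimod in labelled null, and 13.6% and 7.15% in control. Cish was 1.70-fold lower in untreated keratinocytes of labelled null than of control (1.43 to 2.01), at 15.7 and 26.6 CPM.

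Genes known as STAT3 targets were read from a list of 15 found in the gene table. The list was chosen with earlier results of these data known, so its counts are descriptions and no test of STAT3 activity. In fibroblasts of labelled null 8 of 15 were higher with imiquimod and 1 lower, with a median log2 ratio of 0.88 against -0.24 over all genes, of which 9.38% were higher and 28.3% lower. In control fibroblasts 5 of 14 were higher and 2 lower, with a median of 0.08 against 0.01, beside 17.6% and 16.99% of all genes. Keratinocytes had 6 of 14 higher and 1 lower in labelled null (median 0.47, all genes -0.19) and 3 of 14 higher in control (0.07 against -0.19), beside 16.6% of all genes higher in labelled null and 7.15% in control. Mural cells had 6 of 12 higher in labelled null, beside 9.24% of all genes. Between the imiquimod libraries, 8 of 15 were higher in fibroblasts of labelled null than of control and 2 lower, beside 9.92% and 25.3% of all genes. In keratinocytes 7 of 14 were higher and 1 lower, beside 19.5% and 21.9%. Named members are acute phase and tissue remodelling genes. Saa3, an acute phase apolipoprotein, had 18376 CPM in fibroblasts of labelled-null imiquimod, 89.7 in labelled-null untreated, 1572 in control imiquimod and 12.02 in control untreated. Timp1, an inhibitor of matrix proteases, had 766, 39.2, 76.4 and 34.7 CPM in the same order. Lrg1, a secreted glycoprotein, had 33.1, 0.491, 5.24 and 0.271 CPM in fibroblasts, 67.4-fold higher with imiquimod in labelled null (30.8 to 184) and 19.3-fold in control (8.34 to 54.9).

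Lcn2, an iron-scavenging protein of innate defence, was 145-fold higher with imiquimod in keratinocytes of labelled null (91.6 to 245), at 157 against 1.08 CPM. Saa3 in keratinocytes of control imiquimod was at least 160-fold above control untreated, where it had 0 UMIs. In cluster 18 of control imiquimod Saa3 had 217 UMIs against 1 in control untreated, a ratio of 727 (129 to 28830). Fibroblast markers summed to 11585, 15387, 8105 and 34175 CPM in cluster 18 from labelled-null imiquimod to control untreated, and the part of fibroblast RNA in these values was not tested.

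The difference between the imiquimod ratios of the 2 genotype labels was read for 26 pairs of member and lineage with enough UMIs. Of these, 8 had a higher ratio in labelled null and 3 a lower one, beside 13.5% and 18.8% of all measured genes. The ratio of the imiquimod ratios, labelled null over control, was 27.8 for mural Il6 (18.3 to 42.4), 5.55 for fibroblast Il6 (4.75 to 6.48) and 6.19 for keratinocyte Il6 (3.00 to 12.8). For Lif it was 9.98 in fibroblasts (5.37 to 18.5) and 3.45 in keratinocytes (1.34 to 8.88). It was below 1 for Il6ra, at 0.224 in keratinocytes (0.191 to 0.263) and 0.179 in fibroblasts (0.151 to 0.211), and for fibroblast Osmr at 0.603 (0.471 to 0.773). For Osmr the levels with imiquimod were close and the untreated level differed, and with TMM scaling the value was 0.731 (0.571 to 0.937) and no longer past the threshold. The remaining calls were mural Il6st at 2.80 (1.33 to 5.92), mural Socs3 at 2.20 (1.78 to 2.72) and keratinocyte Stat3 at 1.76 (1.55 to 1.99). Keratinocyte Lif was no longer called without cluster 5, at 1.88 (0.620 to 5.69). In fibroblasts Socs3 at 1.47, Stat3 at 1.30 and Il6st at 1.26 did not pass the threshold, but with TMM scaling all 3 did, at 1.78 (1.71 to 1.85), 1.57 (1.41 to 1.76) and 1.52 (1.40 to 1.65). Without cluster 5, keratinocyte Socs3 and Osmr passed it above 1 and Il6st below 1, at 1.68, 1.51 and 0.586.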

How the data were processed

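The authors deposited 1 matrix of UMI counts for 27998 genes in 23455 barcodes, with a barcode suffix for each of the 4 libraries per the labels. Cell Ranger 2.1.0 and build mm10 are named in the submitters' processing notes. The annotation release, and whether reads were thinned when the libraries were joined, are not given in the sources used here.

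Barcodes were kept from 200 genes upward if mitochondrial UMIs made up no more than 10%. Doublets called by Scrublet at an expected rate of 0.05 were left out (between 1.34% and 1.94% of a library). In labelled-null untreated the automatic threshold marked 0.113% of barcodes. The median threshold of the other libraries, 0.263, was used there instead and marked 71. Scanpy 1.11.5 and leidenalg 0.10.2 clustered all cells on 2000 variable genes, 30 components and 15 neighbours at resolution 1, without batch correction. This gave 29 clusters. The 39 cells of cluster 27, unnamed, were looked up in a clustering of each library alone, which put 10 of them with the cells of cluster 18 and left 29 unnamed and out of the lineages. A name needed 3 or more markers found in 10% or more of the cells and raised 2-fold over the median of the clusters (10 CPM added). The top 10 genes of a cluster were ranked by their fold over all other cells. Of the markers, 4 were not matched in the gene table, and 1 list gene is not analysed here.

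UMIs were summed per lineage and library and divided by the lineage total (CPM). Ratios have exact conditional binomial 95% intervals, shares Clopper-Pearson ones, and the ratio of ratios an interval on the log scale from the 4 counts, in scipy 1.17.1. All cover counting error only. A ratio against 0 UMIs is a bound with 3 counts in that library. The intervals and calls were tested on simulated Poisson counts, the model that the intervals assume. That test checks the calculation and cannot show how the intervals perform where UMIs gather in a few cells.

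The members and lists were chosen with earlier results of these data known. Named were the 7 members, the 3 other list genes with the largest called ratio per comparison in fibroblasts, keratinocytes and cluster 18 (marker name macrophage or monocyte), and the 5 genes most like Socs3 and Il6. Some results under this rule are not reported here. Basal and suprabasal cells could not be compared as classes, because cluster 5 leads with genes of another list and 35 suprabasal cells remained in 1 library, so keratinocytes were pooled. Alternatives were TMM factors (edgeR 4.0.16 in R 4.3.3), no minimum of UMIs, cells of at least 3000 UMIs, doublets kept, other class names, list genes left out of clustering, cells thinned to 1000 UMIs and, added after the data were seen, keratinocytes without cluster 5.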

Additional observations from a re-analysis of the deposited data

Results flagged for a closer look

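In 4 cases the imiquimod ratio of a member passed the threshold in opposite directions under the 2 genotype labels. With 1 library per group the difference between the labels was not tested. For Il6 in fibroblasts the ratio of the imiquimod ratios, labelled null over control, was 5.55, and for Lif in fibroblasts it was 9.98. For Il6ra in fibroblasts it was 0.179, with the lower ratio in labelled null. For Il6 in mural cells it was 27.8.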

How the results depend on the processing

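Over 9 alternatives, 339 values of the 39 called ratios were recomputed and 337 kept their direction. Not every ratio could be recomputed: 30 were among cells of at least 3000 UMIs, 37 with each library clustered alone and 38 on thinned cells. Part of this count was fixed in advance. Dropping the minimum of UMIs cannot change a called ratio, joint names alone change cluster 18 only, and leaving out cluster 5 changes keratinocytes only. Without cluster 5, the log2 imiquimod ratio of keratinocyte Socs3 in labelled null turned from -0.93 to 0.10. On thinned cells that of Stat3 in cluster 18 in labelled null turned to -0.085. Among cells of at least 3000 UMIs, 5 members and lineages were called with imiquimod in control (9 among all cells, with 19 of 28 pairs still measured) and 2 between the untreated libraries (4 among all cells). The other counts of calls stayed within 1.5 times: 11 to 20 for imiquimod in labelled null, 7 to 14 between the imiquimod libraries and 8 to 14 for the difference of the ratios. TMM scaling moved the median over all genes by between -0.18 and 0.30 (log2), raised fibroblast ratios of labelled-null imiquimod most, kept 37 of 39 calls and reversed none. It also ended the difference call of fibroblast Osmr and brought fibroblast Il6st, Stat3 and Socs3 past the threshold, with the values given above. Thinning left 27 of 38 calls, and the cause of each lost call was not tested. Without cluster 5 keratinocyte Lif was no longer called between the imiquimod libraries (log2 0.41) or with imiquimod in labelled null (log2 1.22). No paired analysis was possible because each group holds a single library. No replicate could be left out for the same reason, and depth limits Il6, Lif and Osmr in cluster 18 and T or NK cells.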
